A study of Mus musculus with 6 samples.

Results

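Fc receptors bind the constant part of antibodies, and the Fc receptor-like proteins are their structural relatives. On B lineage cells they set how strongly a cell answers antigen that already carries antibody, and a plasma cell, which secretes antibody, is exposed to the ligand it makes. Among them FcγRIIB is the inhibitory receptor for IgG on B cells, the product of Fcmr is the receptor for IgM, and CD23, the product of Fcer2a, is the low-affinity receptor for IgE. The 8 genes described here, Fcgr2b, Fcrl5, Fcrla, Fcrl1, Fcmr, Fcer2a, Fcgrt and Fcer1g, were taken by their symbols from the 24346 gene symbols of each library. All 8 were listed in all 6 libraries.

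RNA-seq was done on plasma cells sorted from mouse spleen by isotype, with 3 libraries of IgM cells and 3 of IgG1 cells. Both groups came from B cells of B1-8germ mice, which carry a knocked-in heavy chain variable region specific for the hapten NP. The B cells bore a congenic marker and were placed in wild-type C57BL/6J recipients that received NP-CGG in alum, and the spleens were taken at day 7. The cells of both groups were therefore donor cells with a preset heavy chain that had entered an intact host. No source used here gives age, sex or the number of recipients per library, or says that each library came from its own animals, and the spread that the p-values rest on may be technical. Values are FPKM, fragments scaled to transcript length and to mapped depth, which allow levels to be compared between genes of different length.

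The depth was not given as counts, and the smallest steps of the low values gave an estimate of 15300000 to 18400000 fragments per library. Plasma cell markers were at summed FPKM of 44300 to 50190 in IgM and 36770 to 39360 in IgG1 libraries, and the 8 markers of that list were detected in every library. Most of that sum was Jchain and Mzb1. At a limma adjusted p under 0.05, 5 of the 8 were lower in IgG1 and 0 higher, beside 1.76% and 4.26% of all tested genes. These were Tnfrsf17 (means of 623 in IgM and 81.9 in IgG1 cells), Jchain, Prdm1, Irf4 and Tnfrsf13b. In the 6 fits that left out a library, Tnfrsf17 and Jchain kept the call in 6, Irf4 in 4, Prdm1 in 2 and Tnfrsf13b in 1. With length and GC trends removed, Prdm1 and Irf4 lost it (limma adjusted p = 0.0759 and 0.124). Among markers of other cells, the 6 of mast cells and basophils were listed at 0 in all libraries, as were 3 of 4 of platelets, 4 of 6 of natural killer cells and 5 of the 6 listed for neutrophils. The exceptions were Itga2b of platelets, at 0.0571 to 1.11 FPKM, Klrk1 and Prf1 of natural killer cells, at 0 to 0.408 and 0.961 to 9.18, and Cxcr2 of neutrophils, at 0.721 to 0.979 in IgM and 1.29 to 1.36 in IgG1 libraries. For dendritic cells 4 of 7 markers were at 0 in all libraries, with Flt3 at 0.587 to 3.57 FPKM, Xcr1 at 0.158 to 1.18 and Zbtb46 at 0 to 0.192. For erythroid cells this held for 1 of the 4 listed, and Hba-a1 was at 0.568 to 2.77. The B cell transcription factor gene Pax5 was listed at 0 in all 6 libraries, while the B lineage surface gene Ms4a1 stood at 45.9 to 70.5 FPKM.

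Of the 8 genes, 6 lie on chromosome 1 or 3, in the GRCm38 coordinates of GENCODE vM21. Fcrla (chr1:170917576-170927583) and Fcgr2b (chr1:170958617-170976547) are neighbours on the minus strand, 31.0 kb apart, and Fcer1g (chr1:171229572-171234365) follows 253.0 kb further on. Fcrl1 (chr3:87376387-87402934) and Fcrl5 (chr3:87435773-87500678) lie 32.8 kb apart on the plus strand, and Fcmr (chr1:130865669-130880791) follows Fcamr, for an Fc receptor for IgA and IgM, and Pigr, for the transporter of polymeric antibody. Fcgrt (chr7:45092990-45103851) and Fcer2a (chr8:3681737-3694175) lie elsewhere. All 8 are annotated as protein-coding, and none shares exon bases with another coding gene. Of the 50-base stretches of the Fcgr2b transcripts, 4.38% also occur in transcripts of other genes, most of them in Fcgr3, a paralog. That share was 1.16% for Fcer2a and 0 for the other 6 genes.

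The promoters of the 4 genes with the highest mean levels in IgM cells are shown because 2 of them, Fcrla and Fcgr2b, overlapped between the groups and 2, Fcrl1 and Fcmr, did not. In IgG1 cells the mean of Fcer1g, 5.51 FPKM, was above that of Fcmr, 3.72, with Fcer1g the higher in IgG1 libraries 2 and 3. Each is 300 bases long and ends 50 bases into the transcript, by the RefSeq start in GRCm38.p6. For Fcgr2b and Fcmr this RefSeq start lies inside the GENCODE gene span given above, so the annotations disagree on where transcription begins. The whole Fcgr2b window lies within that span. Capitals mark every match, on either strand, to the motifs searched: the octamer ATGCAAAT, the TATA box TATAAA, the E-box CANNTG, the ETS core AGGAAG, the PU box GAGGAAGT, the ETS-IRF composite (GGAA, any 2 bases, then GAAA) and the Blimp-1 core GNGAAAG. The PU box contains the ETS core, so matches to the 2 overlap.
Fcrla, chr1:170927534-170927833, minus strand: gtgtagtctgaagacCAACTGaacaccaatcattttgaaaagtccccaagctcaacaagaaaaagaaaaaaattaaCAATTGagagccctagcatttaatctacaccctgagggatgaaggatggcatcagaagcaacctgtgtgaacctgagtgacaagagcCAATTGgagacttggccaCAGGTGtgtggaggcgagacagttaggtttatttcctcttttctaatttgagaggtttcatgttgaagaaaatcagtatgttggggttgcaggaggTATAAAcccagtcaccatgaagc
Fcgr2b, chr1:170976022-170976321, minus strand: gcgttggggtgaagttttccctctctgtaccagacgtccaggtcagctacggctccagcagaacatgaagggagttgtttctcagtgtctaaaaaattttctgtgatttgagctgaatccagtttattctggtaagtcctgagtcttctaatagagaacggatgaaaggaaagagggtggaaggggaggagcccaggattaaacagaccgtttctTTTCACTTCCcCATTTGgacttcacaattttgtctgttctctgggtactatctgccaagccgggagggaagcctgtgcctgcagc
Fcrl1, chr3:87376137-87376436, plus strand: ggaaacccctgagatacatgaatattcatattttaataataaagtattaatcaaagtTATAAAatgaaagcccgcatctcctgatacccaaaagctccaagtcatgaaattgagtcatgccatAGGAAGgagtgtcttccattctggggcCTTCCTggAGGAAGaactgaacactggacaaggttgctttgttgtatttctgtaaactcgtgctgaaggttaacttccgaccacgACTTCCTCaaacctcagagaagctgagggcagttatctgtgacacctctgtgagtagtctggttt
Fcmr, chr1:130865527-130865826, plus strand: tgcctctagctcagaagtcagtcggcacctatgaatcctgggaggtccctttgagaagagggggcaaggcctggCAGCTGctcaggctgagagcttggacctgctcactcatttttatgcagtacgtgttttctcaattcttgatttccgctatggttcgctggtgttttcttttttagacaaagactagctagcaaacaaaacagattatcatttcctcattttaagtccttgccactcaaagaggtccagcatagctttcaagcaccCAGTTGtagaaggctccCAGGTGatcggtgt

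The 4 sequences hold different motifs. Fcgr2b has an ETS-IRF composite starting at position -35 from the RefSeq start, which is downstream of the GENCODE start. That motif was found in 2.72% of the 32851 promoters of the same length. Fcrl1 has 4 ETS cores, a motif in 35.4% of promoters, and the one nearest the start lies in a PU box at position -15, a motif in 3.20%. Fcrla has 4 E-boxes and Fcmr has 3, and 72.3% of promoters hold at least 1. Fcrl1 and Fcrla each hold a TATAAA, at -193 and at 28, a motif in 13.6% of promoters. The octamer (1.74% of promoters) and the Blimp-1 core (22.6%) are not among these letters in the 4 windows. A match of letters does not show a bound site.

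In both groups the 8 genes spanned a steep order of levels, led by Fcrla. Fcrla and Fcgr2b together made up 87.4% to 91.6% of the summed FPKM of the 8 genes in every library. Fcrla was above Fcgr2b in 6 of 6 libraries, by 2.16-fold to 3.58-fold, and Fcgr2b was above Fcrl1 in 6 of 6, by 1.69-fold to 6.72-fold. Fcrl1 and Fcmr were close to each other in IgM cells, at 16.2 ± 3.36 and 15.3 ± 6.46 FPKM (SD, n = 3), a gap smaller than the spread between libraries. Fcer1g, Fcer2a, Fcrl5 and Fcgrt stayed below Fcrl1 in every library, and the order among these 4 changed from library to library.

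**Figure D1:**
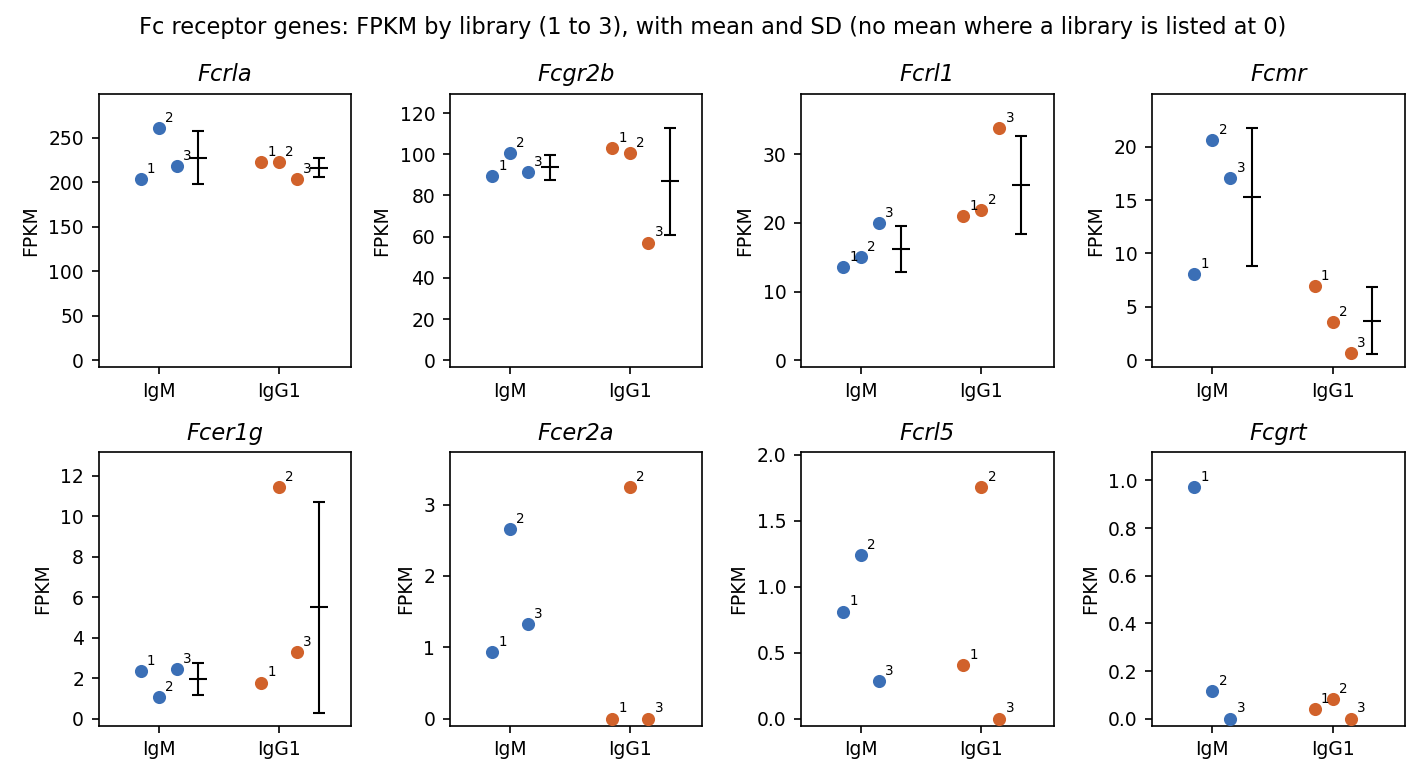
FPKM of the 8 genes in each library (points, numbered 1 to 3 within a group), with the mean and SD of the group as a bar where no library was listed at 0. Fcrla and Fcgr2b overlap between the groups, all IgG1 points of Fcrl1 lie above and all those of Fcmr below the IgM points, and IgG1 library 2 is the highest point for Fcer1g, Fcer2a and Fcrl5.

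In 3 or more libraries 6 of the 8 genes reached 1 FPKM, and these were tested among 9087 genes. By limma with Benjamini-Hochberg adjustment over all tested genes, 0 of these 6 had an adjusted p under 0.05, against 6.02% of all tested genes (387 higher and 160 lower in IgG1). At an unadjusted p under 0.05 there were 2 of 6, Fcmr and Fcrl1, against 22.2% of all genes. The same 2 were the members whose groups did not overlap, Fcrl1 higher in IgG1 and Fcmr lower, beside 27.2% of all tested genes (13.7% higher and 13.5% lower). The median log2 fold change of the 6 was -0.11, beside -0.05 for all tested genes. Every log2 fold change here is the IgG1 minus the IgM level on the log2(FPKM + 1) scale, on which changes of low genes appear smaller than they are. Since each library is a bulk sample, fewer cells that express a gene and less RNA per cell cannot be told apart.

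Fcrla encodes an Fc receptor-like protein that stays inside B cells, in the endoplasmic reticulum, where it can bind antibody chains. Its levels were 204, 261 and 218 FPKM in the 3 IgM libraries, in order of their numbers, and 223, 223 and 204 in the 3 IgG1 libraries. The groups overlapped, and the highest and the lowest library were both IgM. In rank, Fcrla stood between 523rd and 693rd of the 24346 symbols in the 6 libraries. The means were 228 ± 29.8 in IgM and 217 ± 10.8 in IgG1 cells (log2 fold change -0.06, SE 0.13, limma adjusted p = 0.815). The 95% interval of the ratio of IgG1 to IgM ran from 0.789 to 1.16 on the FPKM + 1 scale, so a change of 1.5-fold in either direction lies outside it.

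Fcgr2b encodes FcγRIIB, which recruits the inositol phosphatase SHIP-1 when it is bound together with the B cell receptor. It was at 89.3, 101 and 91.2 FPKM in the IgM libraries (1, 2, 3) and at 103, 100.4 and 57.1 in the IgG1 libraries (1, 2, 3). IgG1 libraries 1 and 2 lay at or near the top of all 6 values and IgG1 library 3 lay below all the others. The means were 93.7 ± 6.03 and 86.8 ± 25.8 (log2 fold change -0.16, SE 0.21, limma adjusted p = 0.726), with a 95% interval of the ratio from 0.654 to 1.23. Without IgG1 library 3 the log2 fold change was 0.12 (limma adjusted p = 0.687). The direction of the small difference therefore rested on that library.

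Fcrl1 encodes an activating co-receptor of the B cell surface. Its levels were 13.6, 14.97 and 19.96 FPKM in the IgM libraries (1, 2, 3) and 21.0, 21.8 and 33.8 in the IgG1 libraries (1, 2, 3). Every IgG1 library was above every IgM library, with a gap of about 1 FPKM between IgM library 3 and IgG1 library 1, and IgG1 library 3 stood above the rest. The means were 16.2 ± 3.36 and 25.6 ± 7.15 (log2 fold change 0.61, SE 0.27, limma adjusted p = 0.203), so that the difference did not pass the test. Over the alternatives tried its value ran from 0.39 to 0.77. The lowest came with the libraries rescaled to the same sum without Jchain (limma adjusted p = 0.38). Summed over all genes, FPKM was 730695, 806599 and 757519 in the IgM libraries and 855123, 878039 and 914019 in the IgG1 libraries. The separation of the Fcrl1 groups refers to the values as deposited and depends on their scaling.

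Fcmr encodes the receptor for IgM, also known as Toso or FAIM3. It was at 8.09, 20.6 and 17.1 FPKM in the IgM libraries (1, 2, 3) and at 6.93, 3.58 and 0.636 in the IgG1 libraries (1, 2, 3). Every IgG1 library was below every IgM library, with IgM library 1 and IgG1 library 1 close to each other and IgG1 library 3 far below the others. From the estimated depth these levels correspond to about 207, 541 and 503 fragments in the IgM and 174, 88 and 16 in the IgG1 libraries.

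The mean of Fcmr was 4.11-fold lower in IgG1 cells, at 3.72 ± 3.15 against 15.3 ± 6.46. With a log2 fold change of -1.97 (SE 0.55, 95% interval -3.18 to -0.76) its limma adjusted p was 0.0591, just outside the threshold. Over the alternatives the adjusted p ran from 0.0301 to 0.536. It was under 0.05 in 4 of 18. These were a pseudocount of 5 (0.0393), a filter at 5 FPKM (0.0443), rescaling to the same sum without Jchain (0.0397) and leaving out IgG1 library 1 (0.0301). The other 14 included no filter (0.536), no intensity trend (0.191) and leaving out IgM library 2 (0.195) or 3 (0.18). Without IgG1 library 3 the log2 fold change was -1.34 (limma adjusted p = 0.124). Fcmr is normally found in B cells. The B cell markers, a list without Fcmr, were at a summed FPKM of 493 to 511 in IgM and 535 to 557 in IgG1 libraries, with 6 of 9 reaching 1 FPKM in at least 1 library. Most of that sum was Cd24a, at 428, 438 and 432 FPKM in IgM and 509, 465 and 493 in IgG1 libraries. Ciita and Ebf1 of the same list were lower in every IgG1 library than in every IgM library, with means of 0.825 against 0.00397 FPKM for Ciita and of 0.831 against 0.0827 for Ebf1. Neither passed the filter on low values, and with no filter their limma adjusted p were 0.356 and 0.578. Among all tested genes 13.5% were lower without overlap. Ms4a1, with means of 65.4 and 57.3, overlapped between the groups. The T cell markers, of cells that can also express Fcmr, summed to 2.15 to 4.73 and 1.13 to 8.36, with 5 of 8 reaching 1 FPKM in some library and Cd8b1 at 0 in all. The part of other cells in the level of Fcmr was not tested.

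**Figure D2:**
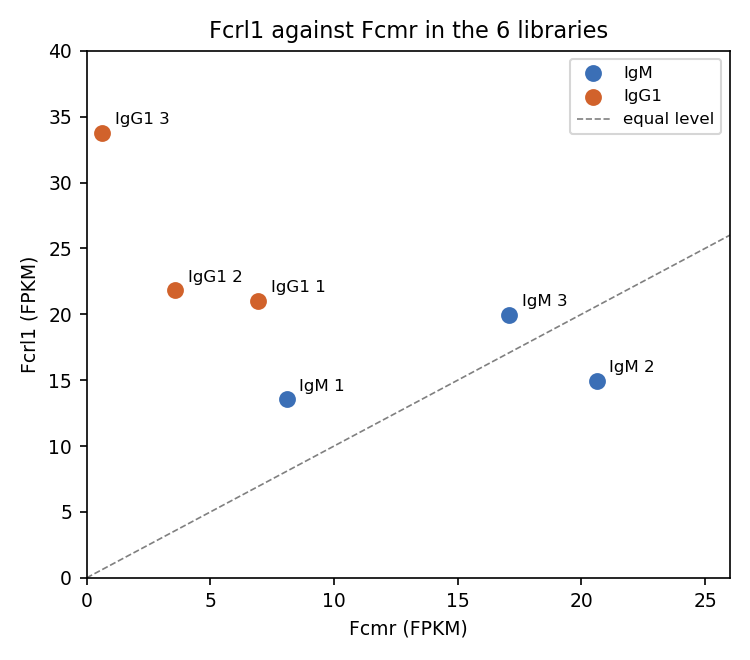
FPKM of Fcrl1 (vertical axis) against Fcmr (horizontal axis), 1 point per library, with a dashed line where both are equal. The IgG1 libraries lie above and to the left of the IgM libraries, and the ratio of Fcrl1 to Fcmr ranges from 0.726 in IgM library 2 to 53.1 in IgG1 library 3.

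The ratio of Fcrl1 to Fcmr was 1.68, 0.726 and 1.17 in the IgM libraries (1, 2, 3) and 3.03, 6.09 and 53.1 in the IgG1 libraries (1, 2, 3). These 2 genes were chosen after their values were seen, as the members without overlap in opposite directions, so their ratio must separate the groups and is given as a description only. It does not depend on the scaling of a library as a whole.

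Fcer1g encodes the Fc receptor γ chain, the signalling subunit that activating Fc receptors share. It was at 2.34, 1.06 and 2.46 FPKM in the IgM libraries (1, 2, 3) and at 1.78, 11.4 and 3.29 in the IgG1 libraries (1, 2, 3). A single library, IgG1 library 2, stood above the other 5, which overlapped (log2 fold change 0.88, SE 0.55, limma adjusted p = 0.39). Without that library the log2 fold change was 0.26 (limma adjusted p = 0.79), and with a pseudocount of 5 it was 0.49. The ligand-binding chains that need this subunit were near 0. Fcgr1, for the high-affinity IgG receptor, was listed at 0 in 5 of 6 libraries and Fcer1a in all 6. Fcgr3 was at 0.0483 to 0.0554 FPKM in 5 libraries and at 1.31 in IgG1 library 2, the library with the highest Fcer1g. Tyrobp, for a related adaptor, was also highest there, at 5.92 against 0.219 to 3.94 in the others.

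Macrophages and monocytes express Fcer1g strongly. The 14 markers of that list summed to 881.5 to 1264 FPKM in IgM and 994 to 1412 in IgG1 libraries, nearly all of it from Ly6c2, and 9 of 14 reached 1 FPKM in at least 1 library. Without Ly6c2, a choice made after the values were seen, the sums were 68.3 to 74.1 and 44.0 to 47.5, with 47.1 in IgG1 library 2, and most of these sums was Cd68, at 34.2 to 58.8. The other markers moved in different ways. C1qc was at 3.37 FPKM in IgG1 library 2, against 0 and 0.233 in IgG1 libraries 1 and 3 and 0.145 to 3.42 in the IgM libraries, and C1qb was at 2.54, against 1.07 to 9.06 in the others. Lyz2 was at 0.160 there, its lowest value, and Csf1r was listed at 0 there and in IgG1 library 1. The part of macrophages or monocytes in the level of Fcer1g was not tested.

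Fcer2a, for CD23, is a gene of mature follicular B cells. It was at 0.935, 2.65 and 1.33 FPKM in IgM libraries 1 to 3, at 3.25 in IgG1 library 2 and listed at 0 in IgG1 libraries 1 and 3. The IgG1 group thus held both the highest and the lowest value (log2 fold change -0.65, SE 0.60, limma adjusted p = 0.579), and without IgG1 library 2 the log2 fold change was -1.35 (limma adjusted p = 0.148). At these levels the size depends on the pseudocount, with -2.31 at a pseudocount of 0.1 and -0.16 at 5, and neither passed the test. Cr2, another gene of mature B cells, was at 0.985, 0.828 and 0 in the IgM libraries and at 0.551, 0.0303 and 0.137 in the IgG1 libraries.

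Fcrl5 and Fcgrt did not pass the filter on low values. Fcrl5, an Fc receptor-like gene of marginal zone and B-1 B cells, was at 0.810, 1.24 and 0.283 FPKM in IgM and 0.407, 1.76 and 0 in the IgG1 libraries (1, 2, 3). Those values overlapped, and with no filter its log2 fold change was -0.14 (SE 0.48, limma adjusted p = 1). Fcgrt encodes the heavy chain of the neonatal Fc receptor FcRn, which recycles IgG. It was at 0.973, 0.114 and 0 FPKM in IgM and at 0.0404, 0.0835 and 0 in the IgG1 libraries (1, 2, 3), or about 26 fragments in IgM library 1 and at most 3 in each of the others. B2m, the light chain of FcRn and of MHC class I, was at 3998 ± 318 FPKM in IgM and 3746 ± 135 in IgG1 cells (limma adjusted p = 0.637). Fcgrt was thus near 0 in the same libraries in which its partner chain was abundant.

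Outside the 8 genes, 12 other Fc-binding or Fc receptor-like genes were examined, and 3 of these reached 1 FPKM in any library. They were B2m, Fcgr3 and Trim21. Fcer1a, Ms4a2, Fcrl6 and Fcamr were listed at 0 throughout, and Pigr reached 0.964 in IgG1 library 3. Trim21, a cytosolic receptor for antibody-coated particles, was at 2.27, 3.37 and 3.20 FPKM in the IgM libraries (1, 2, 3) and at 4.73, 10.3 and 10.1 in the IgG1 libraries (1, 2, 3). Its groups did not overlap, and its log2 fold change of 1.19 (SE 0.41) did not pass the test (limma adjusted p = 0.108). Of the 2 tested genes of this list 0 were called, beside 6.02% of all tested genes, and at an unadjusted p under 0.05 there was 1, Trim21, beside 22.2% of all tested genes.

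**Figure D3:**
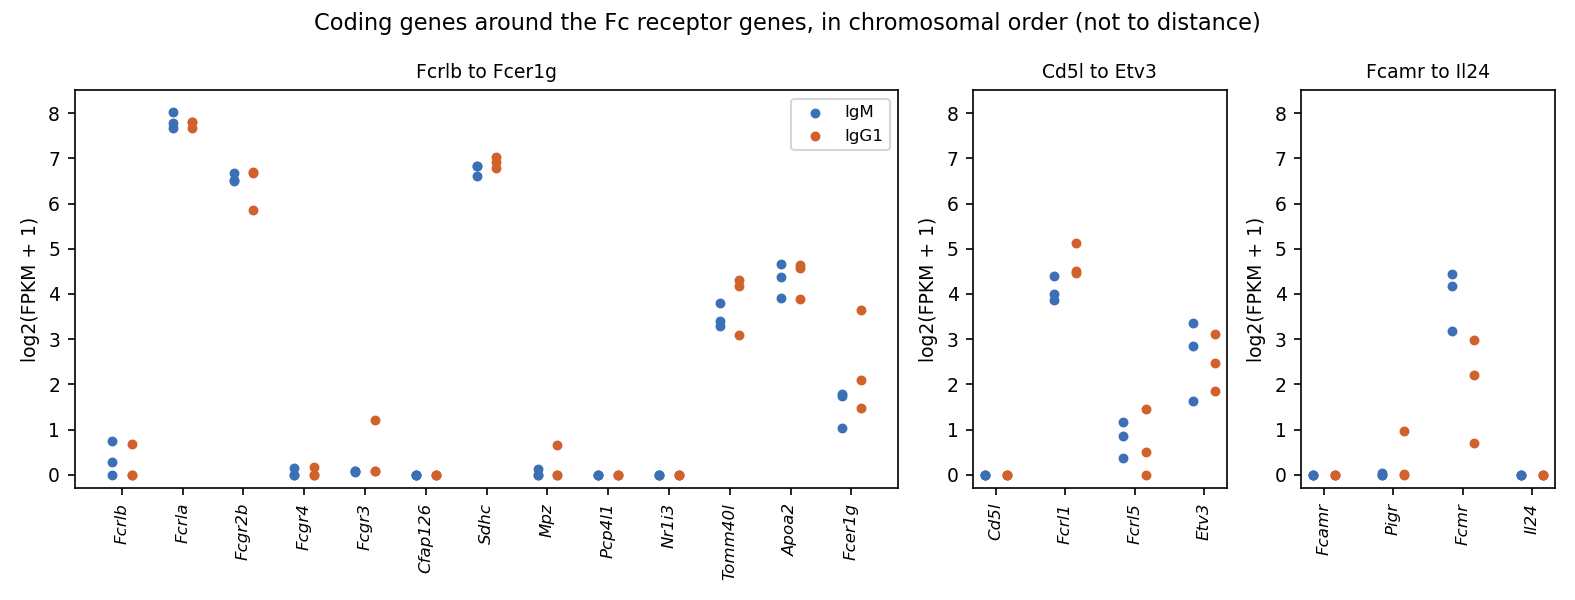
log2(FPKM + 1) of every coding gene from Fcrlb to Fcer1g and from Fcamr to Il24 on chromosome 1 and from Cd5l to Etv3 on chromosome 3, in chromosomal order and not to distance, with 1 point per library. Fcrla and Fcgr2b stand high beside Fcrlb, Fcgr4 and Fcgr3, which stay at or near 0 apart from Fcgr3 in 1 IgG1 library, and Fcmr stands alone in its stretch.

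The neighbourhoods of these genes mixed high and silent members. From Fcrlb to Fcer1g lie 13 coding genes in 327.1 kb, of which 7 reached 1 FPKM in at least 1 library. Within the receptor cluster, Fcrlb reached at most 0.668 and Fcgr4 at most 0.127 FPKM, on either side of Fcrla and Fcgr2b. Among Fcamr, Pigr, Fcmr and Il24 on chromosome 1, Fcmr alone reached 1 FPKM in any of the 6 libraries. Next to Fcrl1 and Fcrl5, Cd5l was listed at 0 in all libraries and the transcription factor gene Etv3 ranged from 2.099 to 9.17.

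Among the genes that carry Fc receptor signals inside the cell, the phosphatase gene Ptpn6 was lower in IgG1 cells. Of 29 such genes 22 were tested, and 0 were higher and 1 lower in IgG1 at an adjusted p under 0.05, beside 4.26% and 1.76% of all tested genes. At an unadjusted p under 0.05 there were 7 of 22, beside 22.2% of all tested genes, and the median log2 fold change was -0.14, beside -0.05. Without overlap of the groups, 7 of 22 were lower and 1 higher in IgG1, beside 13.5% and 13.7% of all tested genes. Ptpn6 encodes SHP-1, which can bind the inhibitory tails of Fc receptor-like proteins. It was at 47.6, 46.0 and 43.1 FPKM in the IgM libraries (1, 2, 3) and at 10.3, 6.92 and 9.504 in the IgG1 libraries (1, 2, 3) (log2 fold change -2.25, SE 0.24, limma adjusted p = 0.00212). Inpp5d, for SHIP-1, the effector of FcγRIIB, was at 30.7, 25.7 and 29.1 FPKM in IgM and 25.7, 49.4 and 25.6 in IgG1 libraries (log2 fold change 0.16, SE 0.26, limma adjusted p = 0.768). Its groups overlapped, with IgG1 library 2 above the rest.

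Of 16 other inhibitory and co-receptor genes of B cells, 6 were tested, and 1 was higher and 1 lower in IgG1, beside 4.26% and 1.76% of all tested genes. The antigen receptor chain gene Cd79b was higher, at 822, 958 and 875 FPKM in IgM and 1354, 1240 and 1540 in IgG1 libraries (log2 fold change 0.64, SE 0.11, limma adjusted p = 0.00909). Slamf7 was lower, at 175, 159 and 176 against 128, 121 and 90.7 (log2 fold change -0.60, SE 0.15, limma adjusted p = 0.0405), and it kept the call in 1 of 6 fits that left out a library, with adjusted p up to 0.168. The inhibitory receptors of this list had different levels. Siglecg was at 22.0 to 32.0 FPKM in IgM and 32.2 to 42.8 in IgG1 libraries, without overlap (limma adjusted p = 0.258). Cd72, which was not tested, was at 0.859 to 1.85 and 0.0514 to 0.343, also without overlap. Among all tested genes 13.7% were higher and 13.5% lower without overlap. Pecam1 was at 4.72 to 10.9 over the 6 libraries, Cd22 did not exceed 2.00, and Pirb, for a receptor of MHC class I, was listed at 0 in all.

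**Figure D4:**
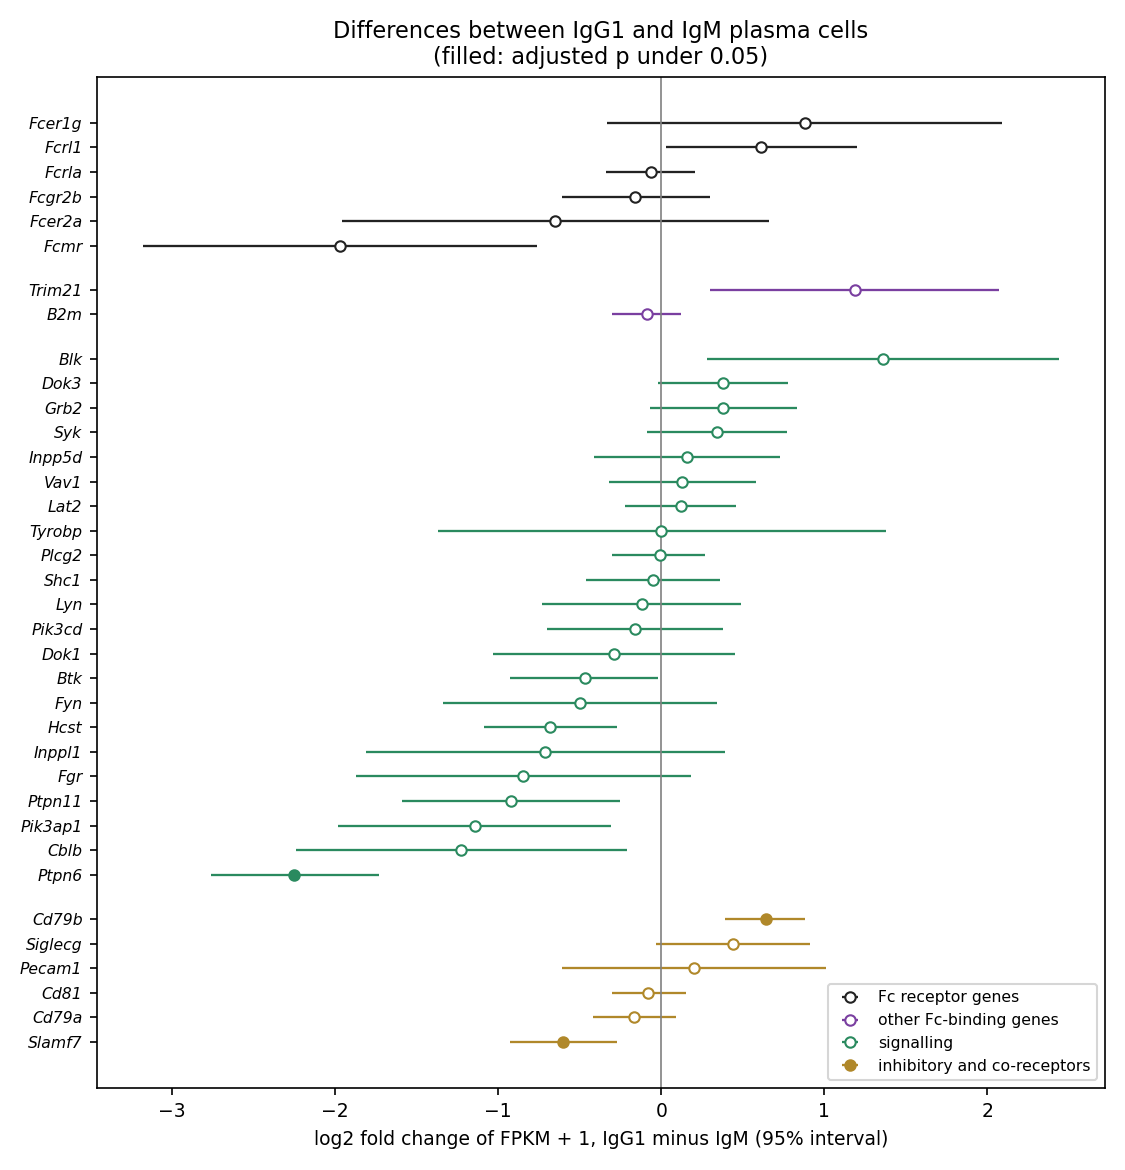
log2 fold change of FPKM + 1 between IgG1 and IgM cells with its 95% interval, for the tested genes of each list, and filled points where the limma adjusted p was under 0.05. None of the 6 Fc receptor genes is filled, the interval of Fcrla is the narrowest of the 6 and those of Fcmr and Fcrl1 do not include 0.

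For the tested members whose highest and lowest libraries differed at least 2-fold in FPKM + 1, the genes of most similar pattern over the 6 libraries were sought among 6303 genes, by the root mean square difference of centred log2 values. This describes the 6 libraries only. Because the genes were picked for closeness to the member in these same libraries, a shared order of libraries largely follows from that choice. The nearest to Fcrl1 were Sept1 (0.07), Ptcd3 (0.09) and Coro2a (0.10), beside a spread of Fcrl1 itself of 0.40. Sept1 was at 85.5, 94.8 and 112 FPKM in IgM and 125, 143 and 203 in IgG1 libraries, the same order of libraries as Fcrl1. The nearest to Fcmr were Plek (0.40), Slc26a2 (0.42) and Fez2 (0.44), beside a spread of 1.25. Each of these 3 was lower in every IgG1 library than in every IgM library, with its lowest value in IgG1 library 3, as for Fcmr. Fcer1g was nearest to Cdca7 (0.31), Dhrs13 (0.34) and Gcsh (0.34), beside a spread of 0.82, and each of these was highest in IgG1 library 2. Fcer2a was nearest to Tmem55a (0.28), Ercc6l (0.32) and Timeless (0.33), beside a spread of 0.81.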

How the data were processed

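Total RNA was made into full-length cDNA (SMART-Seq HT) and then into Nextera XT libraries, per the labels' protocols. The authors deposited 1 FPKM value per gene symbol and library, per the file headers. Per the submitters' processing notes, Bowtie2 2.3.5.1, TopHat2 2.1.1, Cuffdiff and Cufflinks 2.2.1 were used with mm10. No source used here names the annotation or a scaling between libraries. FPKM moves with library composition and with the transcript length assumed.

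Groups came from the sample titles. FPKM were used as deposited. Genes that reached 1 FPKM in 3 or more of the 6 libraries were tested on log2(FPKM + 1) with limma 3.58.1 in R 4.3.3 (eBayes with intensity trend), with Benjamini-Hochberg adjustment over all 9087 tested genes and a threshold of 0.05. The procedure was tested on simulated data. Depth was estimated from the smallest steps of FPKM times length in genes with 1 transcript of at least 2000 nt, and fragments per gene from the median GENCODE vM21 transcript length, so both are approximate. Promoter sequences came from RefSeq (GRCm38.p6), where 8 of 8 symbols matched.

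The members and lists were chosen with earlier results of these data known. A gene of the B cell marker and co-receptor lists is not reported here and was left out of their counts and sums. All 8 members are named. Of the other Fc receptor genes those reaching 1 FPKM, and of the signalling and co-receptor lists up to 4 called genes per direction, were to be named. Other Fc receptor genes below 1 FPKM, Inpp5d, Tyrobp, Cd22, Cd72, Pirb, Siglecg, Pecam1 and Cr2, and the markers of plasma cells and of other cells, were named after their values were seen. Pattern neighbours were the 3 nearest genes with a mean FPKM of at least 5, without immunoglobulin, predicted, Rik, Mir, Snor and LOC symbols. The alternatives changed 1 choice each: the pseudocount (0.1 or 5), the filter (none, or 5 FPKM), the scaling (median centring, quantiles, or equal sums without Jchain), the limma fit (no trend, robust, array weights, replicate block), length and GC trends (removed) and the libraries (each left out).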

Additional observations from a re-analysis of the deposited data

How the results depend on the processing

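Fcmr passed the threshold under 4 of 18 alternatives: at -1.23 with a pseudocount of 5, -1.97 with a filter at 5 FPKM, -2.15 with rescaling without Jchain (each giving 1 member lower in place of 0) and -2.48 without IgG1 library 1. Leaving out 1 library in turn gave -2.48 to -1.34 for Fcmr and 0 to 1 members lower. No member was called higher under any of the 18. Fcrla turned to 0.01 with median centring and ran from -0.14 to 0.04 with 1 library left out, and Fcgr2b ran from -0.30 to 0.12. The cause was not tested. The median over all genes was -0.05 as deposited and -0.25 after rescaling without Jchain, so the -0.30 of Fcrla and -0.38 of Fcgr2b there lie close to it. With length and GC trends removed, Fcmr was at -2.09 (limma adjusted p = 0.0766) and Fcrl1 at 0.58 (0.283). Fcer1g and Fcer2a were not tested with the filter at 5.

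Of all tested genes, 387 were higher and 160 lower. These counts were 5 and 9 with no filter, 3 and 5 without the intensity trend, 177 and 393 with rescaling without Jchain, 120 and 82 with length and GC trends removed, and 188 higher with quantile normalization. With 1 library left out they ran from 78 to 394 and from 30 to 251. Deviations of same-numbered libraries from their group means correlated at 0.101, -0.031 and -0.001, and 2 of 6 libraries correlated best with their own number. These values cannot show whether same-numbered libraries shared an animal or a day. With the replicate block 0 members were called and 432 genes were higher and 154 lower. Depth limits Fcgrt, Fcrl5, Fcer2a and Fcer1g, whose low values rest on few fragments. For Fcer1g these were about 12 to 35 per library outside IgG1 library 2, which had about 119.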
